A study of Homo sapiens with 3 samples.

Results

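The 41 genes described here are those of the amino acid response and of tRNA charging, named by symbol and looked up in the 43913 genes of 3 single-cell count tables. They comprise 20 aminoacyl-tRNA synthetase and scaffold genes, 8 amino acid synthesis enzymes, 5 amino acid transporters and 8 stress factors, and all 41 were listed. These genes and the further lists below were chosen with earlier results of these data known. Shares set beside those of all genes may partly reflect that choice. The study asked how myeloma cells and bone marrow stromal cells influence each other. RNA was sequenced from single cells by Drop-seq, in which droplets pair cells with beads whose barcodes mark the cell and whose unique molecular identifiers (UMIs) mark each captured molecule. There were 3 libraries with 1 library per condition. MM.1S, an established human line of multiple myeloma plasma cells, was grown alone, HS-5, an established human line of bone marrow stromal cells, was grown alone, and both lines were grown together for 4 h. This time is that of the labels and methods, while some figure legends of the study give a shorter one. None of the 3 cultures received any other agent, and each line is a single cell line rather than a set of donors. The study's methods name RPMI medium for myeloma cells and DMEM for HS-5, so medium and line cannot be told apart in the monocultures. They do not name the medium of the sequenced coculture, so a change of medium cannot be told apart from coculture.

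Cells short of an amino acid accumulate uncharged tRNA, which activates the kinase GCN2, and several other stresses act through kinases of the same family on the translation factor eIF2. General protein synthesis then slows while translation of the transcription factor ATF4 increases. ATF4 and its partners of the C/EBP family raise genes for amino acid import, for serine, glycine, proline and asparagine synthesis and for most cytosolic aminoacyl-tRNA synthetases, the enzymes that load each tRNA with its amino acid. Plasma cells secrete large amounts of antibody and are known for a high demand on amino acids and on this pathway.

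Coculture cells were split by genes at least 50-fold different between the monocultures, 63 high in MM.1S and 164 high in HS-5, of which 0 were members. A cell with an HS-5 share of these UMIs below 0.2 was taken as MM.1S and above 0.8 as HS-5, and the 106 cells between (2.75%) were left out. This gave 3947 MM.1S cells in monoculture (10433017 UMIs, median 2201 per cell), 1647 MM.1S cells in coculture (1331298 UMIs, median 669), 3732 HS-5 cells in monoculture (6142273 UMIs, median 971.5) and 2103 HS-5 cells in coculture (2475789 UMIs, median 957). Of 12 plasma cell markers, 9 reached 10 counts per 1000000 UMIs (CPM) in MM.1S monoculture and 2 in HS-5 monoculture, and of 12 stromal markers 10 did so in HS-5 and 4 in MM.1S. Among these, FN1 was at least 2-fold higher in MM.1S and SDC1 at least 2-fold higher in HS-5, against their lists. CAV1, a stromal marker, also went against its list by less than 2-fold, at 457 CPM in MM.1S and 356 CPM in HS-5 monoculture. IL6 was at 0 in MM.1S monoculture. Free RNA of the other line, estimated from the line-specific genes, made up 1.58% of what MM.1S cells in coculture held and 0.703% of what HS-5 cells held there. The libraries shared 44, 39 and 76 cell barcodes in pairs. With 1 library per condition there was no test, and a library and its condition cannot be told apart. Every interval below is an exact 95% interval and covers counting error only.

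Levels are UMIs summed over the cells of a group and divided by all UMIs of that group, in CPM. A log2 ratio compares 2 groups with a pseudocount of 1 CPM, and its interval is that of the ratio of the 2 counts without the pseudocount. Ratios are described where the mean of the 2 groups reached 10 CPM, which a gene can pass through its higher group alone. The words "higher" or "lower" without further words mean at least 2-fold. ASNS, PYCR1 and CHAC1 stayed under that mean in every comparison. ASNS, asparagine synthetase, had 9 UMIs in MM.1S monoculture and 0 in each of the other groups, where 3 counts would be 2.25 CPM in MM.1S cells in coculture, 0.488 CPM in HS-5 monoculture and, for HS-5 cells in coculture, 1.21 CPM. The last 500 exonic bases of ASNS lie wholly within another gene model on the same strand (AC079781.5, 33 UMIs in MM.1S monoculture), so that reads there could be counted for either or for neither. PYCR1, the last enzyme of proline synthesis, had 72 UMIs in MM.1S monoculture, 2 in MM.1S cells in coculture and 0 in HS-5, and 77.4% of its last 500 exonic bases face a gene model on the other strand. CHAC1, which degrades glutathione, had 21, 2, 24 and 3 UMIs in MM.1S monoculture, MM.1S coculture, HS-5 monoculture and HS-5 coculture.

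**Figure D1:**
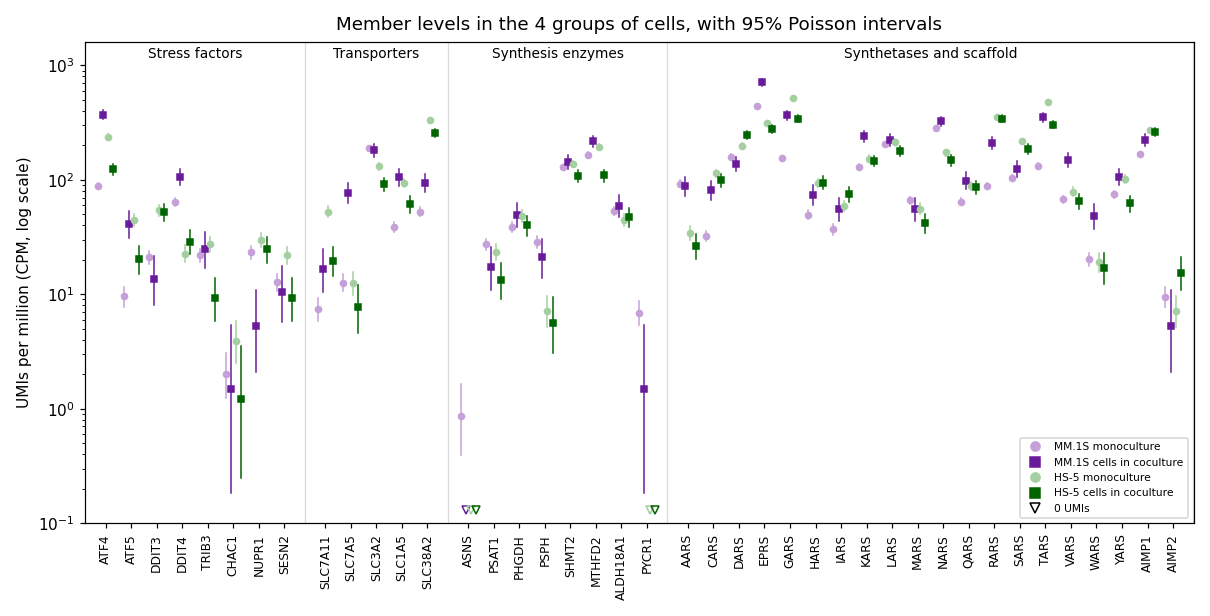
Level of each of the 41 members in CPM (log axis) in the 4 groups of cells, by role, with 95% Poisson intervals, and open triangles where a group held 0 UMIs. ATF4 is at 371 CPM in MM.1S cells in coculture and at 88.6 CPM in MM.1S monoculture, while in HS-5 cells it is at 124 CPM in coculture and 237 CPM in monoculture.

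The 2 lines grown alone were compared first, to give the levels from which each line started. Most members that differed were higher in the stromal line. Of 37 members past the minimum, 11 (29.7%) were higher in HS-5, where 38.1% of all 8734 genes past the same minimum were higher, and 3 (8.1%) were lower, where 15.3% of all genes were. The median log2 ratio was 0.32 over the members and 0.56 over all genes, so the members as a group lay below the typical gene of this comparison. Relative to that median of all genes, 7 members were higher and 6 lower.

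Among the stress factors, ATF4, the transcription factor at the centre of the response, had 924 UMIs in MM.1S, or 88.6 CPM with a Poisson interval of 83.0 to 94.5, and 1453 UMIs in HS-5, or 237 CPM with an interval of 224 to 249, a log2 ratio of 1.41. ATF5, a related transcription factor, had 9.59 CPM in MM.1S and 44.6 CPM in HS-5, a log2 ratio of 2.11. DDIT3, the pro-apoptotic factor CHOP, had 21.1 and 54.4 CPM, a log2 ratio of 1.33, and its gene overlaps MARS on the opposite strand. All 3 were higher in the stromal cells, but ATF4 was at 0.84 relative to the median of all genes, and DDIT3 lay under 2-fold in 4 of 15 alternatives, with a lowest value of 0.45 in cells of 500 to 1000 UMIs. DDIT4, an inhibitor of the growth kinase complex mTORC1, went the other way with 64.0 CPM in MM.1S and 22.6 CPM in HS-5, a log2 ratio of -1.46. TRIB3, a pseudokinase that restrains the response, was at 22.0 and 27.4 CPM, and the log2 ratio was 0.30.

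The transporters showed the widest differences. SLC7A11, which imports cystine, had 7.38 CPM in MM.1S (77 UMIs) and 52.4 CPM in HS-5 (322 UMIs), a log2 ratio of 2.67. SLC38A2, a sodium-coupled carrier of small neutral amino acids, had 52.8 CPM in MM.1S and 331 CPM in HS-5, a log2 ratio of 2.62. SLC1A5, the glutamine carrier, had 38.7 and 93.9 CPM, a log2 ratio of 1.26 that was 0.69 relative to the median of all genes. These 3 were higher in HS-5, whereas the 2 chains of the large neutral amino acid exchanger were not. Its light chain SLC7A5 had 12.7 CPM in MM.1S and 12.5 CPM in HS-5, and the shared heavy chain SLC3A2 had 189 and 131 CPM, log2 ratios of -0.01 and -0.52.

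Of the synthesis enzymes, PSPH, the last enzyme of serine synthesis, was lower in HS-5, with 28.8 CPM in MM.1S and 7.16 CPM in HS-5, a log2 ratio of -1.87. In cells of 500 to 1000 UMIs, which left 80 MM.1S cells in monoculture, this ratio was 3.05, and of the 31 member ratios past 2-fold in any comparison it was the 1 that changed direction under an alternative. Relative to the median of all genes, members with ratios between 0 and that median, such as PHGDH, MTHFD2 and TRIB3, lay below 0 as well. The other 5 past the minimum lay within 2-fold, from ALDH18A1 of proline synthesis at -0.25 to PHGDH, the first enzyme of serine synthesis, at 0.32. The mitochondrial folate enzyme MTHFD2 had a log2 ratio of 0.22.

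Among the synthetases, 5 of 19 were higher in HS-5, and their median of 0.43 became -0.13 relative to the median of all genes. RARS, for arginine, had 88.6 CPM in MM.1S and 354 CPM in HS-5, a log2 ratio of 1.99 (interval 1.89 to 2.11). TARS, for threonine, had 133 and 477 CPM, a log2 ratio of 1.84. CARS (cysteine), GARS (glycine) and SARS (serine) had log2 ratios of 1.79, 1.75 and 1.05. SARS lay under 2-fold in 6 of 15 alternatives, with a lowest value of 0.16 in cells of 500 to 1000 UMIs, and CARS was at 0.87 relative to genes of like transcript length. The synthetases did not move as a block, since AARS, for alanine, was lower in HS-5 with 34.5 CPM against 92.7 CPM in MM.1S, a log2 ratio of -1.40. NARS, for asparagine, had a log2 ratio of -0.70.

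The second comparison set MM.1S cells in coculture against MM.1S cells grown alone, to see how the myeloma cells changed beside stromal cells. The response was uneven within the pathway: ATF4, ATF5, 3 transporters and 6 synthetases were higher, while the synthesis enzymes stayed within 2-fold and the stress factor NUPR1 was lower. In all, 11 of 37 members (29.7%) were higher, against 19.0% of all 7837 genes past the minimum, and 1 (2.7%) was lower, against 5.79% of all genes. The median log2 ratio was 0.50 over the members and 0.24 over all genes. By counting error alone, 23 of the 37 intervals lay above 0, 2 lay below 0 and 12 held 0, while over all genes 40.3% lay above 0 and 19.3% below. Relative to the median of all genes, 7 of the 11 kept a 2-fold difference, and SLC7A11, RARS, VARS and WARS lay at 0.82, 0.99, 0.90 and 0.97.

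ATF4 (chromosome 22, 39519695 to 39522685 on the plus strand, GRCh38) rose from 88.6 CPM to 371 CPM in coculture (494 UMIs, 339 to 405 CPM). Its log2 ratio was 2.05 with an interval of 1.91 to 2.23. ATF5 went from 9.59 CPM (100 UMIs) to 41.3 CPM (55 UMIs), a log2 ratio of 2.00. No other stress factor past the minimum reached a 2-fold rise. DDIT4 had 64.0 CPM alone and 106 CPM in coculture, a log2 ratio of 0.72 whose interval, 0.45 to 0.99, lay above 0. TRIB3 had 22.0 and 24.8 CPM, a log2 ratio of 0.16 whose interval, -0.40 to 0.70, held 0. DDIT3 had 21.1 and 13.5 CPM, a log2 ratio of -0.60, and SESN2, which binds leucine and restrains mTORC1, had 12.7 and 10.5 CPM, a log2 ratio of -0.26. NUPR1, a small stress-induced chromatin protein, fell from 23.2 CPM (242 UMIs) to 5.26 CPM (7 UMIs), a log2 ratio of -1.95 with an interval of -3.47 to -1.08. UMIs of NUPR1 were seen in 1.29% of MM.1S cells alone, so its level rests on few cells, whose spread the interval leaves out. In cells thinned to 500 UMIs the shares were 0.557% alone (0.350 to 0.843%) and 0.0833% in coculture (0.00211 to 0.463%). These 2 intervals overlapped.

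SLC7A5 (chromosome 16, 87830023 to 87869488 on the minus strand) had the largest ratio of the 37 members, from 12.7 CPM (132 UMIs) to 76.6 CPM (102 UMIs), a log2 ratio of 2.51 with an interval of 2.21 to 2.98. Its heavy chain SLC3A2 had 189 CPM alone and 180 CPM in coculture, a log2 ratio of -0.06. The light chain was thus 5.68-fold higher while the chain it pairs with lay within counting error of no change. SLC1A5 went from 38.7 to 105 CPM, a log2 ratio of 1.42 that was 0.55 in cells of 500 to 1000 UMIs, and SLC38A2 from 52.8 to 94.6 CPM, a log2 ratio of 0.83. SLC7A11 had 7.38 and 16.5 CPM, a log2 ratio of 1.06 that rests on 22 UMIs in coculture and has an interval of 0.41 to 1.86.

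No synthesis enzyme reached 2-fold. MTHFD2 had 165 CPM alone and 217 CPM in coculture, a log2 ratio of 0.39, and PHGDH had 38.6 and 49.6 CPM, a log2 ratio of 0.35. PSAT1 and PSPH, the enzymes that follow PHGDH in serine synthesis, had log2 ratios of -0.63 and -0.43. The median of the 6 enzymes, 0.15, was below that of all genes, whereas the medians of the transporters and of the synthetases, 1.06 and 0.58, were above it.

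TARS (chromosome 5, 33440696 to 33469539 on the plus strand) rose from 133 CPM (1385 UMIs) to 352 CPM (469 UMIs), a log2 ratio of 1.40 with an interval of 1.25 to 1.56, and of 0.88 in cells of 500 to 1000 UMIs. GARS (chromosome 7, 30594681 to 30634033 on the plus strand) rose from 154 to 367 CPM, a log2 ratio of 1.25, and CARS from 32.3 to 81.1 CPM, a log2 ratio of 1.30 that was 0.82 relative to genes of like transcript length. RARS went from 88.6 to 209 CPM, VARS (valine) from 67.6 to 150 CPM and WARS (tryptophan) from 20.1 to 48.1 CPM, with log2 ratios of 1.23, 1.14 and 1.22. These 6 charge tRNAs with threonine, glycine, cysteine, arginine, valine and tryptophan. EPRS, which charges both glutamate and proline, had 445 CPM alone and 708 CPM in coculture, a log2 ratio of 0.67, and KARS (lysine) had 130 and 240 CPM, a log2 ratio of 0.89. At the other end, AARS, DARS (aspartate) and MARS (methionine) had log2 ratios of -0.08, -0.20 and -0.25, each with an interval that held 0. Of the 19 synthetase and scaffold genes past the minimum, 16 lay above 0, where 62.0% of all genes did, and 3 below, and TARS marked the upper end at 2.64-fold.

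**Figure D2:**
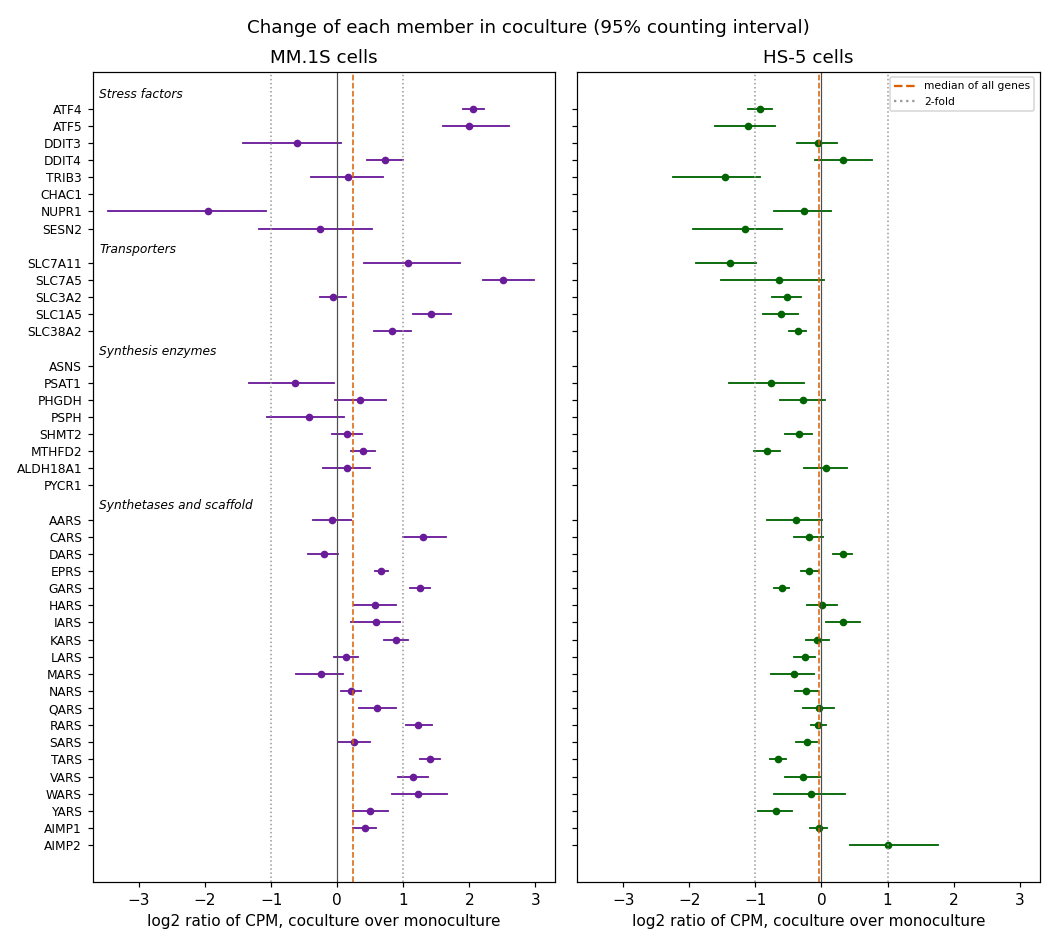
Log2 ratio of CPM in coculture over monoculture for each member past the minimum, in MM.1S cells (left) and HS-5 cells (right), with 95% counting intervals. In MM.1S cells 11 of 37 members lie at or beyond the upper 2-fold line, SLC7A5 farthest at 2.51, while in HS-5 cells 31 of 37 members lie below 0.

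Promoter windows were examined because several of these genes moved together in MM.1S cells. They hold 250 bases before and 50 after each start site annotated by RefSeq (GRCh38.p14), and 32 members matched. The element through which ATF4 and C/EBP factors act was searched as TGATGNAA on both strands. It was found in 11 of the 32 members (34.4%) and in 4.46% of the 27305 genes of the table, and the strict form TGATGCAA, which is contained in the first, in 8 members (25.0%) and 1.08% of genes. By window, TGATGNAA was in 11 of 51 member windows and in 3.62% of all 35116 windows. The members were listed as genes of this response, so a share above that of all genes was partly set by the choice of list. Members holding TGATGNAA were AARS, ASNS, CARS, CHAC1, GARS, IARS, MARS, NARS, SLC1A5, SLC3A2 and TARS. NUPR1, PSPH, SHMT2, PYCR1, SLC7A11, DARS, LARS, VARS and YARS were not matched. The windows of 4 genes that held the element and were higher in MM.1S coculture, of AARS, which held it and was not, and of CHAC1, which held it and stayed under the minimum, are given with the element in capitals (TTGCATCA and TTTCATCA read it on the other strand), each 5′ to 3′ on the gene's own strand. CARS, TARS and GARS have 2 windows each and SLC1A5 has 3, for different start sites, of which 1 each held the element.

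CARS, chr11:3057374-3057673, minus strand: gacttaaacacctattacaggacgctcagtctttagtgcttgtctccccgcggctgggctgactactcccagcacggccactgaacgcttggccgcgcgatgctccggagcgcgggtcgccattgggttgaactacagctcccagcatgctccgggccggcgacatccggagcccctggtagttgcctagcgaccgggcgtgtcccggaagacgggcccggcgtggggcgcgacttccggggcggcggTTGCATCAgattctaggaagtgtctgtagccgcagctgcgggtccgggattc
TARS, chr5:33440715-33441014, plus strand: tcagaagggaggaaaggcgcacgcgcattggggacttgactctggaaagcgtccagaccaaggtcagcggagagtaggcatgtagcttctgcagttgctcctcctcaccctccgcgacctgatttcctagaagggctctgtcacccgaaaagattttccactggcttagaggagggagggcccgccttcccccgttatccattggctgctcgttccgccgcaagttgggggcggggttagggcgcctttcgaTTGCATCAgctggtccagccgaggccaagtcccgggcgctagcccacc
GARS, chr7:30594628-30594927, plus strand: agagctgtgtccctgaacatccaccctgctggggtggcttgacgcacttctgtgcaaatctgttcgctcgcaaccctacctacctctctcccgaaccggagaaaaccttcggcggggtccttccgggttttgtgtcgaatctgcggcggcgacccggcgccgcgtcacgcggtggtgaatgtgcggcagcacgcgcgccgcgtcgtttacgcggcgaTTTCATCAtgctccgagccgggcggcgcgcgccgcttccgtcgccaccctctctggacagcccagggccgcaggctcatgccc
SLC1A5, chr19:46784765-46785064, minus strand: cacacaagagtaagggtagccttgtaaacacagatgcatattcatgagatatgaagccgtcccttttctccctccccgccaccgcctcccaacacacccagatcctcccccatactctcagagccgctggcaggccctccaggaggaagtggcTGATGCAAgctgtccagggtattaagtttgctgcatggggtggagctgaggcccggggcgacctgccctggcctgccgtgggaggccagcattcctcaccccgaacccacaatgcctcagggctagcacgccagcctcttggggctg
AARS, chr16:70289457-70289756, minus strand: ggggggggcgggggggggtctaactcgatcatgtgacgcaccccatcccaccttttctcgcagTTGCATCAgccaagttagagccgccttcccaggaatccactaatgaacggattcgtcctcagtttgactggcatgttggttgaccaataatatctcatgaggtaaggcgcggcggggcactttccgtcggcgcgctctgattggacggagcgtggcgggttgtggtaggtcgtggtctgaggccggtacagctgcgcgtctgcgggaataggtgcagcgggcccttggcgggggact
CHAC1, chr15:40953221-40953520, plus strand: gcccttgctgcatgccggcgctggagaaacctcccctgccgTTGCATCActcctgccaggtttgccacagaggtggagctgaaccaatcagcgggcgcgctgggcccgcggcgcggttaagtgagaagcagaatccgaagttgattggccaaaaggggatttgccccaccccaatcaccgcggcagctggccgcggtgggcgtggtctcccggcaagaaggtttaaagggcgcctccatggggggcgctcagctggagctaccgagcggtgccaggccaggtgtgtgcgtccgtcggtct

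Members with and without a match were found among both those that were higher in MM.1S coculture and those that were not. Of 9 holders past the minimum, 4 were higher, with a median of 0.58 over the 9, and of 20 matched members without the element 5 were higher, with a median of 0.59. Among the holders CARS, GARS, TARS and SLC1A5 were higher, and AARS, IARS, MARS, NARS and SLC3A2 had log2 ratios between -0.25 and 0.58. RARS, WARS, SLC7A5, ATF4 and ATF5 were the 5 higher without a match in their windows. This difference was not tested. WARS is also known as a gene induced by interferon gamma, and 1 of its 2 windows held TTCNNNGAA, the core of STAT sites, and GAAANNGAA, part of the interferon-stimulated response element, which are in capitals here.

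WARS, chr14:100375298-100375597, minus strand: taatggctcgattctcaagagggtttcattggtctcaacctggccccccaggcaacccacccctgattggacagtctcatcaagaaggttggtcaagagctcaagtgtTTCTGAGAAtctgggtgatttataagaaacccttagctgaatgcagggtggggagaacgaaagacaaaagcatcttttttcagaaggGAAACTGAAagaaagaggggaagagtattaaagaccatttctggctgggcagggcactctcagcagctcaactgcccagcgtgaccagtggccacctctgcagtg

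TTCNNNGAA was found in 4 of the 32 members (12.5%) and 9.38% of genes, and GAAANNGAA in 5 members (15.6%) and 9.86% of genes, on both strands. A match describes these letters and is no evidence of binding.

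The third comparison set HS-5 cells in coculture against HS-5 cells grown alone. Here the members moved less and mostly downwards: 31 of 37 had a log2 ratio below 0, where 53.4% of all genes did, with a median of -0.27 against -0.04 over all genes. At least 2-fold, 4 members (10.8%) were lower, against 1.82% of all 8811 genes past the minimum, and 1 (2.7%) was higher, against 1.21% of all genes. By counting error alone, 20 intervals lay below 0, 3 above 0 and 14 held 0, while over all genes 23.2% lay below 0 and 20.1% above. The median number of UMIs per cell was nearly the same in the 2 groups, 971.5 and 957.

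ATF4 went from 237 CPM to 124 CPM (110 to 139, 307 UMIs), a log2 ratio of -0.93 that stopped short of 2-fold, with an interval of -1.11 to -0.75. ATF5 went from 44.6 to 20.2 CPM, a log2 ratio of -1.11. TRIB3 went from 27.4 CPM (168 UMIs) to 9.29 CPM (23 UMIs), a log2 ratio of -1.46, and SESN2 from 22.0 to 9.29 CPM, a log2 ratio of -1.16. With a pseudocount of 5, ATF5 and SESN2 were at -0.98 and -0.92. Of the 7 stress factors past the minimum, ATF5, TRIB3 and SESN2 were lower. The intervals of DDIT3 (54.4 and 52.1 CPM), DDIT4 (22.6 and 28.7 CPM) and NUPR1 (29.8 and 24.6 CPM) held 0.

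All 5 transporters lay below 0. SLC7A11 went from 52.4 CPM (322 UMIs) to 19.4 CPM (48 UMIs), a log2 ratio of -1.39 with an interval of -1.90 to -0.99, and it alone reached 2-fold, though it was at -0.73 in cells of 500 to 1000 UMIs. SLC7A5 had 12.5 and 7.67 CPM, a log2 ratio of -0.64, SLC1A5 93.9 and 61.0 CPM, a log2 ratio of -0.61, SLC3A2 131 and 91.3 CPM, and SLC38A2 331 and 257 CPM, a log2 ratio of -0.36. Among the synthesis enzymes, MTHFD2 had 193 CPM alone and 109 CPM in coculture, a log2 ratio of -0.82, and PSAT1 23.4 and 13.3 CPM, a log2 ratio of -0.77. ALDH18A1, with 44.8 and 46.9 CPM, had the highest log2 ratio of the enzymes at 0.06.

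The synthetases had a median of -0.19. YARS (tyrosine), TARS and GARS had the lowest ratios, with 101 and 62.2 CPM, 477 and 302 CPM, and 518 and 341 CPM, log2 ratios of -0.69, -0.66 and -0.60. RARS, which had been among the genes that differed most between the lines, had 354 and 342 CPM, a log2 ratio of -0.05. DARS and IARS (isoleucine) lay above 0 at 0.32 and 0.33. AIMP2, a scaffold of the multisynthetase complex, was at 7.16 CPM (44 UMIs) and 15.3 CPM (38 UMIs), a log2 ratio of 1.00 with a lowest value of 0.73 over the alternatives, and its last 500 exonic bases lie wholly opposite EIF2AK1 on the other strand, so its reads cannot be told from those of EIF2AK1 unless strand was used in counting.

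ATF5 and SLC7A11 were higher in MM.1S and lower in HS-5 in coculture. In MM.1S both passed the minimum only through their coculture level. The difference between the lines was not tested.

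The 2 lines were also compared within the coculture library, where both were captured together. The order of the lines seen in the monocultures changed for several members. Of 37 members past the minimum, 4 (10.8%) were higher in HS-5, against 26.1% of all 8890 genes, and 10 (27.0%) were lower, against 15.8% of all genes. The median log2 ratio was -0.35 over the members and 0.17 over all genes. For 32 of the 37, the ratio of HS-5 over MM.1S was smaller together than apart, which follows from the 2 changes described above and is no separate measurement of them.

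ATF4 turned from 1.41 apart to -1.57 together (interval -1.79 to -1.37), the 1 member past 2-fold in opposite directions. SLC7A5, level with -0.01 apart, stood at -3.16 together (-4.11 to -2.60), at 7.67 CPM in HS-5 and 76.6 CPM in MM.1S cells. VARS, WARS and EPRS, at 0.22, -0.08 and -0.50 apart, were at -1.20, -1.45 and -1.35 together. GARS and TARS, higher in HS-5 apart, were at -0.11 and -0.22. Of the 11 members higher in HS-5 apart, 2 remained so, DDIT3 at 1.87 and SLC38A2 at 1.43. PSPH, DDIT4 and AARS, the 3 lower in HS-5 apart, were lower together as well, at -1.73, -1.85 and -1.71.

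**Figure D3:**
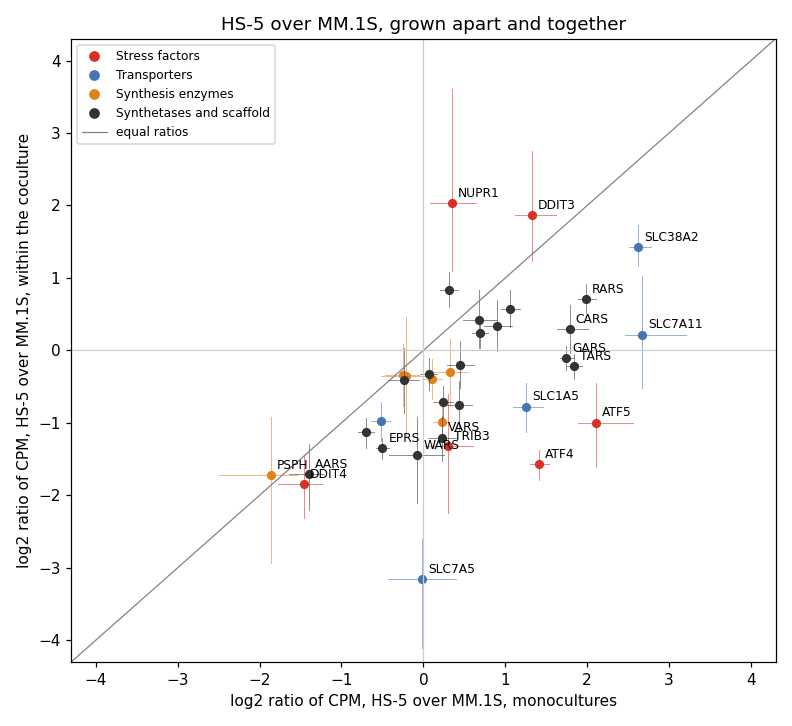
Log2 ratio of CPM in HS-5 over MM.1S cells between the monocultures (horizontal) and within the coculture library (vertical) for each member past the minimum in both, coloured by role, with 95% counting intervals and the line of equal ratios. ATF4 lies at 1.41 and -1.57 and SLC7A5 at -0.01 and -3.16, and most members lie below the line.

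The shares of cells with a UMI of a member were compared after every cell had been thinned to 500 UMIs, since the groups differed in depth. Shallower cells were left out, which kept 3947 and 1200 MM.1S cells and 3515 and 1802 HS-5 cells in monoculture and coculture. ATF4 was seen in 3.72% of MM.1S cells alone (Clopper-Pearson interval 3.15 to 4.36%) and 17.3% in coculture (15.2 to 19.6%), against 19.0% and 24.4% before thinning. In HS-5 the shares were 11.9% alone (10.8 to 13.0%) and 6.38% in coculture (5.30 to 7.61%), against 27.6% and 13.3% before thinning. The shares of MM.1S cells were farther apart after thinning than before it.

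SLC7A5 was seen in 0.709% of MM.1S cells alone and 3.33% in coculture, TARS in 5.50% and 15.4%, and GARS in 6.69% and 17.2%. Each pair of intervals was apart. In HS-5 cells GARS was seen in 24.0% alone and 16.5% in coculture, and TARS in 21.7% and 14.9%. ATF4, SLC7A5, TARS and GARS had UMIs in every group of cells, so no group could serve to measure their background. The free RNA of 1.58% and 0.703% covers RNA of the other line only. With that free RNA subtracted, the log2 ratios in MM.1S cells were 2.07 for ATF4, 2.53 for SLC7A5, 1.40 for TARS and 1.25 for GARS.

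**Figure D4:**
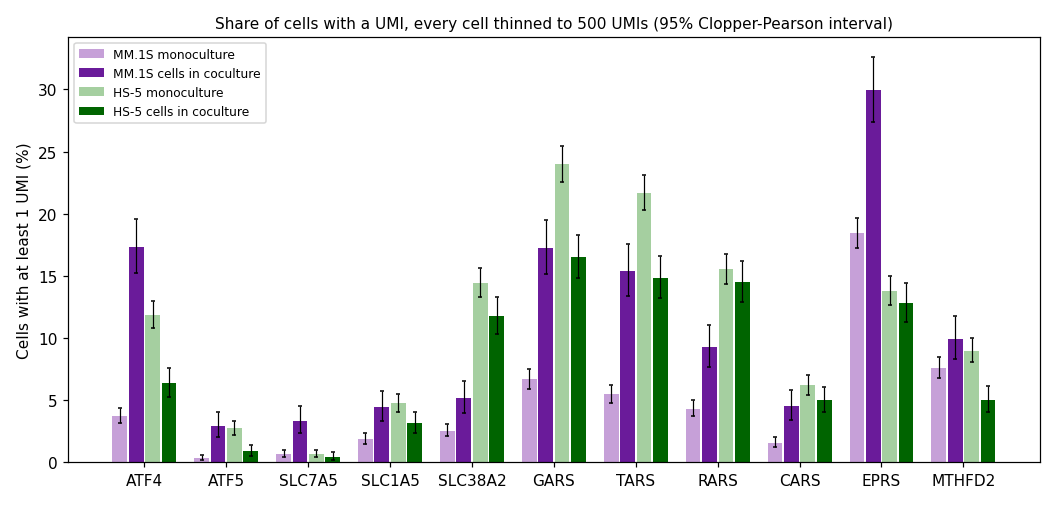
Percentage of cells with at least 1 UMI of 11 members in the 4 groups, every cell thinned to 500 UMIs, with 95% Clopper-Pearson intervals. The ATF4 bar of MM.1S cells is at 3.72% in monoculture and 17.3% in coculture, and that of HS-5 cells at 11.9% and 6.38%.

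Summed over their members, the 20 synthetase and scaffold genes took 2377 CPM in MM.1S monoculture (2348 to 2407) and 3672 CPM in MM.1S cells in coculture (3570 to 3777), and 3538 and 3010 CPM in HS-5. The 8 stress factors took 243 and 574 CPM in MM.1S and 441 and 269 CPM in HS-5, and the 5 transporters 300.1 and 473 CPM in MM.1S and 621 and 436 CPM in HS-5. Of the stress factor sum, ATF4 alone took 88.6 and 371 CPM in MM.1S and 237 and 124 CPM in HS-5. The 8 synthesis enzymes took 450 and 509 CPM in MM.1S and 455 and 323 CPM in HS-5. Each of the 4 sums lay above its monoculture value in MM.1S cells and below it in HS-5 cells, and the stress factor sum of MM.1S was the 1 past 2-fold. Across cells thinned to 500 UMIs, the synthetase sum had a variance of 1.12 times its mean in MM.1S monoculture and 1.02 times in coculture, where counting alone gives 1. No synthetase UMI was seen in 33.0% of the thinned MM.1S cells alone and in 17.2% in coculture.

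MM.1S cells in monoculture were sequenced more deeply than those in coculture, with medians of 2201 and 669 UMIs, and ribosomal protein genes took 18.8% of their UMIs alone and 12.0% in coculture. Within each group, cells were therefore divided by UMIs into 3 equal parts. In the shallowest part of the MM.1S monoculture, with a median of 1394 UMIs, ATF4 was at 81.8 CPM (69.2 to 96.0), and in the deepest part of the MM.1S coculture cells, with a median of 1148.5 UMIs, at 346 CPM (304 to 391). At these closer depths TARS was at 119 and 329 CPM, SLC7A5 at 9.33 and 75.7 CPM and EPRS at 406 and 700 CPM. GARS, at 142 and 292 CPM, was the member of these 5 that varied most with depth within the coculture cells, from 461 CPM in the shallowest to 292 CPM in the deepest. Mitochondrial genes took 6.82% alone and 4.05% in coculture. Scaling without ribosomal protein and mitochondrial genes together left ATF4 at 1.88 and SLC7A5 at 2.36 and put VARS, at 0.97, and SLC7A11, at 0.92, below 2-fold.

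**Figure D5:**
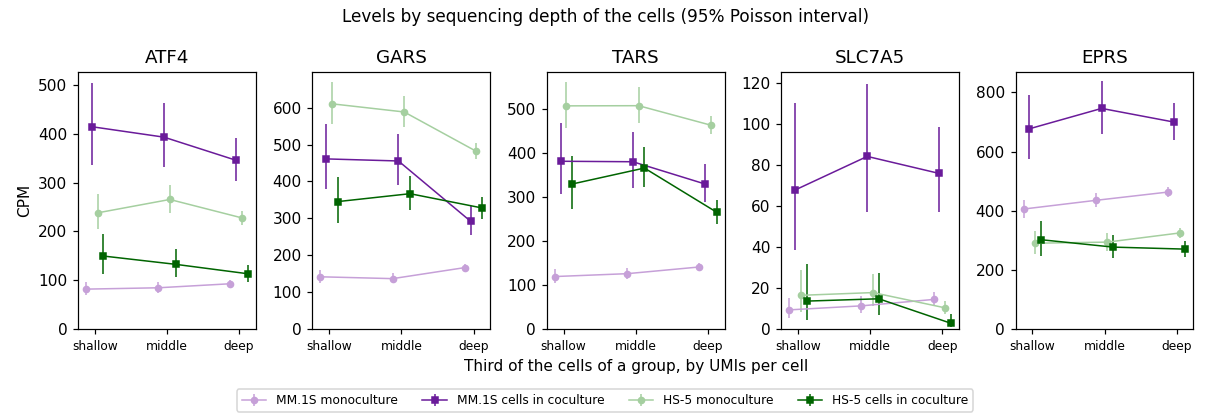
CPM of ATF4, GARS, TARS, SLC7A5 and EPRS in 3 equal parts of the cells of each group ordered by UMIs per cell, with 95% Poisson intervals. In every part, MM.1S cells in coculture lie above MM.1S monoculture for each of the 5 genes.

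The other genes of the pathway were read from lists by role, and their counts in MM.1S coculture stand beside the 19.0% of all genes that were higher there, the 5.79% that were lower and the median of 0.24. Of 11 other ATF4-associated genes past the minimum, 5 (45.5%) were higher and 0 lower, with a median of 0.85. CEBPB, a C/EBP factor that pairs with ATF4, had 9.59 CPM alone and 42.8 CPM in coculture, a log2 ratio of 2.05, and CARS2, the mitochondrial cysteine synthetase, which is also counted with the mitochondrial synthetases, 4.79 and 27.0 CPM, a log2 ratio of 2.27. CEBPB and CARS2 were among the genes that passed the minimum only through their coculture level. The count and median therefore lean towards genes that are high in coculture. In HS-5 cells 0 of 10 passed 2-fold in either direction, where 1.21% of all genes were higher and 1.82% lower, and the median was -0.19. With shares this small, a short list would seldom hold a gene past 2-fold.

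Of 6 other amino acid transporters past the minimum in MM.1S cells, 3 were higher, among them SLC7A6 at 1.46 and SLC1A4 at 1.41, and 0 were lower. The median was 0.84. In HS-5 cells all 4 past the minimum lay within 2-fold, where 1.21% of all genes were higher and 1.82% lower. The mitochondrial synthetases had a median of 0.04 in MM.1S coculture, with 2 of 12 (16.7%) higher, near the share of all genes, and the 4 other cytosolic synthetase genes a median of 0.10, with 0 past 2-fold.

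The 12 further enzymes of serine, glycine, folate and glutamine metabolism had 2 higher (16.7%), near the share of all genes, and 3 lower (25.0%) in MM.1S cells. MTHFD1L, which follows MTHFD2 in mitochondrial folate metabolism, had 12.9 CPM alone and 93.1 CPM in coculture, a log2 ratio of 2.76. GLUL, which makes glutamine, had 55.0 and 18.0 CPM, a log2 ratio of -1.56, and the cytosolic SHMT1 19.0 and 6.01 CPM, a log2 ratio of -1.51.

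Upstream, 3 of the 14 genes for eIF2, its kinases and its phosphatase were higher in MM.1S coculture (21.4%), near the share of all genes, and 2 lower (14.3%). GCN1, which activates GCN2, had a log2 ratio of 1.54. PPP1R15B, the constitutive regulator of the eIF2 phosphatase, was at 1.44 and PPP1R15A, its stress-induced counterpart, at -1.36 on 7 UMIs in coculture. In HS-5 cells 0 of 13 passed 2-fold, where 1.21% of all genes were higher and 1.82% lower.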

How the data were processed

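The authors deposited whole-number UMI counts per gene and cell barcode for 3 Drop-seq libraries, without normalization. The submitters' processing notes name UMI-tools 1.0.0, STAR 2.5.3a, featureCounts 1.6.4 of Subread, SAMtools 1.9, Cell Ranger 3.0.2 and GRCh38. Whether counting used strand is not given in the sources used here. Beside AIMP2 and PYCR1, other members have last 500 exonic bases that face a gene model on the other strand. Among them are MTHFD2 (100%), MARS (71.0%), DDIT4 (56.2%), HARS (44.2%) and WARS (22.8%), whose levels carry the same limit.

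Barcodes with 200 or more detected genes entered the analysis. The UMIs of each line in each library were added up and expressed as CPM (Python 3.11.15, numpy 2.4.6, scipy 1.17.1, pandas 2.3.3). Line-specific genes had at least 50 CPM in their own monoculture. Free RNA was not subtracted in the main values. Doublets of both lines were removed by their line-specific UMIs, while doublets of 1 line were not sought. Intervals were exact Poisson or Clopper-Pearson, and cells were thinned by random draws without replacement. For MM.1S cells in coculture, 10 CPM is 13.3 UMIs. Gene positions came from GENCODE release 29 and promoter windows from RefSeq.

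The members and lists were chosen with earlier results of these data known. Values were given for members past 2-fold and for the 2 highest and 2 lowest members of each role. Of the other lists, the 2 highest and 2 lowest genes could be named. The values of 1 such gene are not reported here. The steps were tested on simulated data. The alternatives changed the cells kept, scaling, pseudocount, minimum, doublet limits, line-specific genes, free RNA and thinning, and 2 of the 16 were chosen after seeing the data.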

Additional observations from a re-analysis of the deposited data

Results flagged for a closer look

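ATF5 and SLC7A11 moved past 2-fold in opposite directions in the 2 lines. ATF5 had a log2 ratio of coculture over monoculture of 2.00 in MM.1S cells and -1.11 in HS-5 cells. SLC7A11 had a log2 ratio of 1.06 in MM.1S cells and -1.39 in HS-5 cells. Each line had 1 library per condition, so the difference between the lines was not tested. In MM.1S monoculture ATF5 was at 9.59 CPM and SLC7A11 at 7.38 CPM, so both passed the minimum in that line only through their coculture level. In MM.1S cells in coculture, ATF5 rests on 55 UMIs and SLC7A11 on 22. The log2 ratio of SLC7A11 there was past 2-fold in 9 of 15 alternatives, with a lowest value of 0.56.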

How the results depend on the processing

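No paired analysis was possible because each condition was 1 library and the labels give no shared replicate numbers; for the same reason no replicate could be left out. Of 31 member ratios past 2-fold, 14 stayed past it in the same direction in all 15 alternatives, among them ATF4, ATF5, SLC7A5, GARS and NUPR1 in MM.1S coculture and TRIB3 in HS-5 coculture. This count follows the ratio alone and does not ask whether a member passes the minimum. ATF5, SLC7A5 and NUPR1 in MM.1S and TRIB3 in HS-5 fall below the minimum of 50 CPM. The cause of the shifts below was not tested, except that a minimum of 50 CPM leaves fewer members. Depth limits members near 10 CPM in MM.1S cells in coculture, and the libraries differ in depth and in ribosomal share.

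For HS-5 over MM.1S monocultures, the medians were 0.227 (synthetases) and 0.372 (stress factors) with 200 to 2500 genes and under 5% mitochondrial UMIs. With cells of 500 to 1000 UMIs they were 0.20 (enzymes) and 1.71 (transporters), and PSPH reversed to 3.05. Without ribosomal protein and mitochondrial genes they were 0.104 (synthetases), -0.319 (enzymes) and 0.996 (transporters). Relative to the median of all genes, 7 members were higher and 6 lower, with medians of -0.133 (synthetases, reversed), -0.619 (enzymes), 0.692 (transporters) and 0.176 (stress factors). With equal weight per cell the transporter median was 1.64. At a minimum of 50 CPM, 1 member was lower, with medians of 0.164 (enzymes) and 1.41 (stress factors). Relative to genes of like transcript length, chosen after seeing the data, 5 members were lower, with medians of -0.057 (synthetases, reversed), -0.571 (enzymes), 0.886 (transporters) and 0.102 (stress factors).

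For MM.1S in coculture, 2 members were lower with the limits on genes and mitochondrial UMIs, where the ratio of the shares of cells with an ATF4 UMI was 3.73, and 2 without a minimum. With cells of 500 to 1000 UMIs the medians were 0.936 (synthetases) and 0.549 (transporters). Relative to the median of all genes, 7 members were higher and the synthetase median was 0.341. At a minimum of 50 CPM, 7 were higher and 0 lower, with a stress factor median of 1.39. Relative to genes of like length the medians were 0.313 (synthetases) and 0.561 (transporters).

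For HS-5 in coculture, 0 members were higher with equal weight per cell, a pseudocount of 5, a minimum of 50 CPM, 20-fold line-specific genes or genes of like length. A pseudocount of 5 left 2 lower and a minimum of 50 CPM left 0. The transporter median was -0.248 with cells of 500 to 1000 UMIs. Within the coculture library, a minimum of 50 CPM left 1 higher and 6 lower.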

Other observations

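Other gene groups moved beside the amino acid response in MM.1S cells in coculture. Their lists were chosen with earlier results of these data known, so a share above that of all genes may partly reflect that choice. Of 8 interferon gamma and IRF1-associated genes past the minimum, 5 (62.5%) were at least 2-fold higher and 0 lower, with a median log2 ratio of 2.83, where 19.0% of all genes were higher, 5.79% lower and the median was 0.24. IRF1, a transcription factor of the interferon response, had 9.20 CPM alone and 122 CPM in coculture, a log2 ratio of 3.59. GBP1, an interferon-induced GTPase, was at 3.46 on 9 UMIs alone and 26 in coculture. The list held 12 genes, and IRF1, GBP1 and GBP2 passed the minimum only through their coculture level. The count and median therefore lean towards genes that are high in coculture. In HS-5 cells 1 of 7 was higher, where 1.21% of all genes were, and the median was 0.31.

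Of 9 MYC-associated genes in MM.1S cells, 3 (33.3%) were higher and 1 (11.1%) lower. ODC1, the first enzyme of polyamine synthesis, had a log2 ratio of 3.02 and NOP56, a nucleolar protein, 1.84, while MYC itself was the 1 lower gene at -1.06. In HS-5 cells 0 of 9 passed 2-fold, where 1.21% of all genes were higher and 1.82% lower. The NRF2-associated genes had a median of 0.47 in MM.1S cells, with 1 of 7 (14.3%) higher, near the share of all genes, GCLM of glutathione synthesis at 1.32. Their median was -0.20 in HS-5 cells, with 0 of 8 past 2-fold, beside the same 1.21% and 1.82% of all genes.

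The 14 genes for chaperones of the endoplasmic reticulum and the unfolded protein response had a median of -0.07 in MM.1S cells, with 2 higher (14.3%) and 1 lower (7.1%), both near the shares of all genes. DNAJB11 and SDF2L1 were at 1.11 and 1.05 and DNAJB9 at -1.11. In HS-5 cells the median was 0.36, with 1 higher, the disulfide isomerase PDIA6 at 1.01, where 1.21% of all genes were higher. In HS-5 cells 10 of the 14 lay above 0, where 46.6% of all genes did.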
